A study of Mus musculus with 15 samples.

Results

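The genes described here encode the oxidative phosphorylation machinery, from the mitochondrial and from the nuclear genome. Members were chosen by symbol, as the rows that start with mt-Nd, mt-Co, mt-Cyt or mt-Atp, or with Nduf, Uqcr, Sdh, Cox4i, Cox5, Cox6, Cox7, Cox8 or Atp5, without symbols that contain -ps. This gave 13 mitochondrial and 101 nuclear genes of 55228 listed genes. RNA was sequenced in 15 libraries of 81K1, a mouse embryonic stem cell line made from OG2 cells. The line is 1 clone with a Smarcb1-directed shRNA placed in the Rosa26 locus behind a promoter that needs doxycycline, and Smarcb1 belongs to the core of BAF chromatin remodellers. Both ctrl and kd cells carried this shRNA and grew on gelatine with LIF, and only kd cells received doxycycline, at 1 µg per ml and day. The 5 groups of 3 libraries were 48 h ctrl, 48 h kd, 72 h kd, 240 h ctrl and 240 h kd. Cells given doxycycline but lacking the shRNA were not analysed here, so the shRNA and the drug cannot be told apart, and the 72 h kd libraries were set against 48 h ctrl, so time and knockdown cannot be told apart at 72 h.

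Oxidative phosphorylation passes electrons from nutrients along the respiratory complexes I to IV to oxygen, and ATP synthase, complex V, uses the proton gradient that this builds across the inner mitochondrial membrane. Complexes I, III, IV and V each combine a small core made from mitochondrial DNA with many nuclear-encoded subunits, while complex II is nuclear-encoded throughout. Mitochondrial genes are transcribed as long polycistronic RNAs that are then cut and turned over one by one, so a shared promoter does not fix the ratio between them. Pluripotent stem cells are known for a high use of glycolysis beside respiration.

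The mitochondrial members comprised 7 genes of complex I, mt-Cytb of complex III, 3 genes of complex IV and 2 genes of complex V. The nuclear members comprised 39 genes of complex I, 4 of complex II, 8 of complex III, 21 of complex IV, 17 of complex V and 12 assembly factors. Of the nuclear members, 96 were annotated as protein-coding, 4 (Cox6c2, Ndufb4c, Ndufa11b and Ndufs6b) as processed pseudogenes, and Atp5md had no match in the annotation used. Values are FPKM over the whole gene span, introns included, as deposited, and the reads behind them were recovered as whole numbers, with 11074998 to 14515300 reads per library. Smarcb1 itself lay between 3.41 and 3.93 FPKM in 48 h ctrl and between 3.31 and 3.55 FPKM in 240 h ctrl, and between 0.503 and 0.82 FPKM in all kd libraries, so every library fitted its label. The 7 stem cell markers were present in all groups, with summed levels of 1507 to 1617 FPKM in 48 h ctrl, 1608 to 1862 FPKM in 48 h kd, 2340.3 to 2440.1 FPKM in 72 h kd, 1382 to 1513 FPKM in 240 h ctrl and 1458 to 1512 FPKM in 240 h kd. Single markers moved apart: at 72 h Dppa5a was called higher (1.04), and at 240 h Esrrb and Zfp42 were called lower (-0.78 and -0.58), with 1, 4 and 2 of the 7 passing as higher and 2, 2 and 3 as lower at 48 h, 72 h and 240 h.

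Reads on mitochondrial members varied more between replicate libraries than between groups. They made up 1.45%, 1.12% and 0.838% of the reads of the 48 h ctrl libraries, and 1.17%, 2.38% and 1.21% of those of the 48 h kd libraries. The 72 h kd libraries gave 0.993%, 1.11% and 0.875%, the 240 h ctrl libraries 1.37%, 1.19% and 0.466%, and the 240 h kd libraries 1.82%, 1.28% and 1.31%. The ctrl and kd groups overlapped at both times, and the highest library, 48 h kd replicate 2, held 5.1 times the share of the lowest, 240 h ctrl replicate 3. The 48 h kd group had a mean of 1.58% ± 0.688 (SD, n = 3), and 1.19% without replicate 2, against 1.14% ± 0.308 (SD, n = 3) in 48 h ctrl. Fewer mitochondria per cell and less RNA per mitochondrion cannot be told apart in such bulk libraries.

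Reads on nuclear members were far steadier. Their share ran from 1.06% to 1.14% in 48 h ctrl, from 0.968% to 1.1% in 48 h kd, from 1.08% to 1.11% in 72 h kd, from 0.956% to 1.06% in 240 h ctrl and from 0.936% to 0.988% in 240 h kd. In 4 of the 5 groups, the library with the most reads on mitochondrial members was also the one with the fewest on nuclear members, and 48 h kd replicate 2 was one of these.

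**Figure D1:**
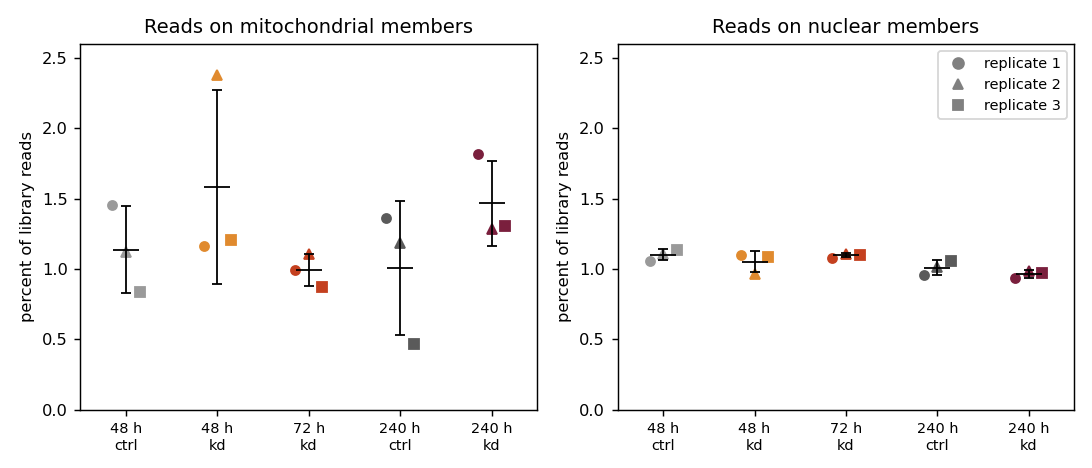
Percent of library reads on the 13 mitochondrial (left) and 101 nuclear (right) members, by group, on the same scale. Symbols are libraries, bars the mean and SD (n = 3); mitochondrial shares spread from 0.466% to 2.38%, nuclear ones from 0.936% to 1.14%.

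Of the 13 mitochondrial members, 7 were counted in every library, with at least 2094 reads each, and 6 had at most 1 read in every library. The 6 were mt-Co2 and mt-Co3, subunits of the cytochrome c oxidase core, mt-Atp6 and mt-Atp8 of ATP synthase, and mt-Nd3 and mt-Nd4l of complex I, so neither mitochondrial subunit of ATP synthase could be followed. These lie side by side on the mitochondrial genome, from chromosome M 7013 to 10173 (GRCm38). A copy of much of this stretch sits in the nuclear genome, where 7 annotated pseudogenes lie between positions 24611535 and 24616197 of chromosome 1. For 5 of the 6 uncounted members, 97.8% to 99.9% of all stretches of 75 bases in the transcript also occurred in a transcript elsewhere. The exception was mt-Atp8, with 0% in annotated transcripts. Among the counted members this share was 61.5% for mt-Nd4, 39.8% for mt-Co1, 5.71% for mt-Nd2, 1.66% for mt-Nd5 and 0% for mt-Nd1, mt-Nd6 and mt-Cytb. The chromosome 1 copies themselves held 0 to 57 reads per library. How reads with several matches were treated is not given in the sources used here, and its part in the missing counts was not tested. The first 75 bases of mt-Nd4l and of its copy Gm10222 are shown because they are what a short read would have to tell apart. Over the 294 bases that the transcripts share there were 0 mismatches, so no base is in capitals (GENCODE release M21, GRCm38; mt-Nd4l at chromosome M 9877 to 9951, plus strand, and Gm10222 at chromosome 1 24612626 to 24612700, minus strand).
mt-Nd4l: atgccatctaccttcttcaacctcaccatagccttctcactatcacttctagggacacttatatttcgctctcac
Gm10222: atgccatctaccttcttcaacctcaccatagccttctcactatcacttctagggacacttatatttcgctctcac

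**Figure D2:**
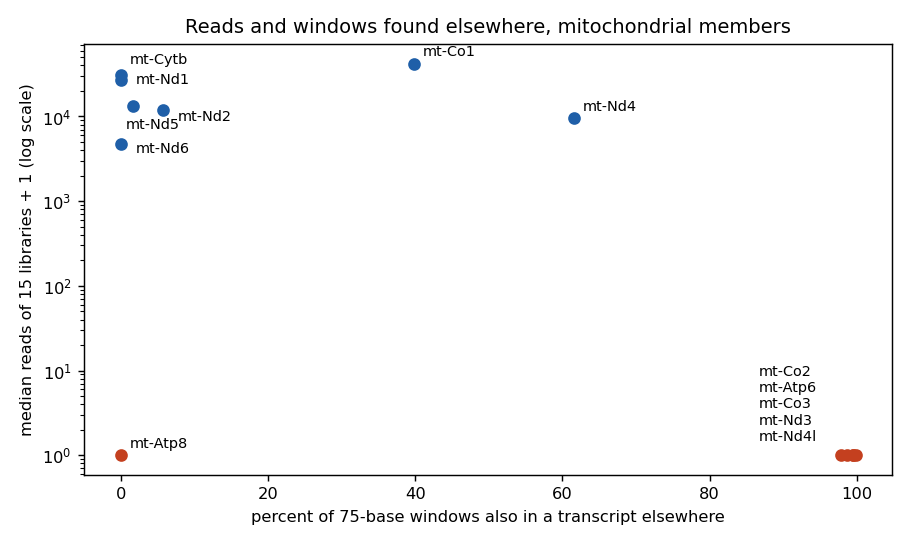
Median reads over 15 libraries, plus 1, on a log scale, against the percent of 75-base windows that also occur in transcripts elsewhere, for the 13 mitochondrial members. The 6 uncounted members (red) lie on the floor, 5 of them at 97.8% or more; the 7 counted ones (blue) reach at most 61.5%.

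Scaled to the library, no mitochondrial member passed limma's test on log2(FPKM + 0.1) in any comparison. In the 48 h comparison, where 16.1% of 11420 genes passed an adjusted p-value of 0.05 (limma on log2(FPKM + 0.1), Benjamini-Hochberg), the 7 counted members were all higher in kd, with log2 fold changes from 0.18 for mt-Co1 to 0.76 for mt-Nd2 (SE 0.25 to 0.39, adjusted p 0.24 to 0.754). At 240 h, where 33.8% of 11401 genes passed, all 7 were again higher in kd, from 0.41 for mt-Co1 to 1.06 for mt-Nd2 (SE 0.37 to 0.45, adjusted p 0.114 to 0.521). At 72 h, where 55.0% of 11440 genes passed, mt-Nd2 had 0.28 and the other 6 were between -0.33 and -0.05. At an unadjusted p under 0.05, 0 of the 7 passed in any comparison. On the recovered reads, limma voom called mt-Nd1 (0.70), mt-Nd2 (1.06), mt-Nd4 (0.74) and mt-Cytb (0.96) at 240 h, with adjusted p from 0.00149 to 0.0305, where it called 18.0% of all genes. It called mt-Nd1 (-0.76), mt-Nd4 (-0.59) and mt-Cytb (-0.70) at 72 h kd against 48 h kd, where it called 13% of all genes. By adjusted p-value alone voom passed 2 of 7 at 72 h (9983 of 16146 genes), 4 at 240 h (7561 of 16633) and 5 at 72 h kd against 48 h kd (6918 of 16104). These outcomes thus depended on the test. Voom was not run with a library left out. The part of 240 h ctrl replicate 3 (0.466% of reads on mitochondrial members) and 48 h kd replicate 2 (2.38%) in its calls was not tested.

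The ratio between mitochondrial members was much more stable than their total, and it differed between ctrl and kd. Each member was therefore also expressed as a share of the reads on the 7 counted members, a scale on which the total per library cancels and on which a rise of one member must lower others. This scale was added after the data had been seen. Doxycycline, given in every kd library, is a tetracycline, a class of antibiotics known to act on mitochondrial ribosomes as well as bacterial ones, and a drug effect on these shares cannot be told apart from one of the shRNA. The members for which the 9 kd and 6 ctrl libraries did not overlap were mt-Co1, mt-Nd2 and mt-Cytb. In FPKM, a different scale, 10.8% of the 11433 genes that averaged 0.5 FPKM or more over the 15 libraries separated them in the same way.

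The largest of these was mt-Co1, the catalytic subunit of cytochrome c oxidase. Its share was 34.6%, 32.4% and 34.2% in the 48 h ctrl libraries, against 34.1%, 34.5% and 33.5% in those of 240 h ctrl. With doxycycline it was 29.0%, 27.9% and 28.2% at 48 h, 29.7%, 30.8% and 30.7% at 72 h, and 28.3% in each of the 240 h kd libraries. All 9 kd libraries thus lay below all 6 ctrl libraries. The share fell by 0.25 ± 0.04 (SE) on the log2 scale at 48 h, by 0.15 ± 0.03 at 72 h and by 0.26 ± 0.02 at 240 h, with adjusted p-values of 0.0143, 0.0108 and 0.000584 (limma).

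In the opposite direction moved mt-Nd2, a membrane subunit of complex I. It took 7.01%, 7.12% and 6.47% in the 48 h ctrl libraries, against 7.29%, 6.78% and 7.01% in those of 240 h ctrl. In kd it took 8.55%, 9.19% and 8.11% at 48 h, 9.4%, 9.34% and 9.36% at 72 h, and 9.02%, 9.32% and 9.27% at 240 h. The lowest kd library stood above the highest ctrl library. The rise was 0.33 ± 0.06 (SE) at 48 h, 0.45 ± 0.04 at 72 h and 0.39 ± 0.03 at 240 h, with adjusted p-values of 0.025, 0.000417 and 0.000776 (limma).

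The third was mt-Cytb, the only mitochondrial-encoded subunit of complex III. Its share lay between 18.5% and 20.3% in the 6 ctrl libraries and between 21.2% and 23.7% in the 9 kd libraries. The rises of 0.21 ± 0.04 (SE), 0.11 ± 0.03 and 0.28 ± 0.03 at 48 h, 72 h and 240 h had adjusted p-values of 0.0202, 0.0115 and 0.00137 (limma). The 4 other counted members overlapped between ctrl and kd. Of these, mt-Nd1 fell by 0.16 at 72 h (adjusted p = 0.00803, limma), and mt-Nd5 rose by 0.12 at 72 h (adjusted p = 0.00504, limma) and fell by 0.14 at 240 h (adjusted p = 0.0232, limma), while mt-Nd4 and mt-Nd6 passed in none of the 3 comparisons. mt-Nd6 is the one member on the minus strand, and the counts did not use strand, so its reads cannot be told apart from antisense transcripts.

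In all, 3 of 7 members passed on this scale at 48 h, 5 at 72 h and 4 at 240 h, in fits where 16.1%, 55.1% and 33.8% of all genes passed. Between the ctrl groups of 240 h and 48 h 0 of 7 passed (3.5% of all genes, and 3.44% in the fit on library-scaled values), between 72 h kd and 48 h kd 1 did (mt-Nd1, lower by 0.16, adjusted p = 0.0324; 35.4% of all genes), and for the difference between the 240 h and 48 h effects 0 did (15.6% of all genes). The mt-Nd1 difference was lost without 48 h kd replicate 3 or any 1 of the 72 h kd libraries (adjusted p from 0.0794 to 0.115, limma), and 5 of 7 members passed without 48 h kd replicate 2. At 48 h the outcome turned on single libraries. Without 48 h kd replicate 2 all 3 passed, with each other library left out 2 or 3 of them did not, and the adjusted p ranged from 0.0271 to 0.0708 for mt-Co1, from 0.038 to 0.0812 for mt-Nd2 and from 0.022 to 0.0917 for mt-Cytb. At 240 h these 3 members passed without any 1 library, and at 72 h the exception was mt-Cytb without 72 h kd replicate 1 (adjusted p = 0.053). The mt-Nd5 fall at 240 h did not pass without 240 h ctrl replicate 2 or any 1 of the 240 h kd libraries (adjusted p up to 0.0912). Of the 3 members with a difference at every time, mt-Co1 and mt-Nd2 hold stretches that also occur in other annotated transcripts (39.8% and 5.71%), and mt-Cytb holds none (0%).

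**Figure D3:**
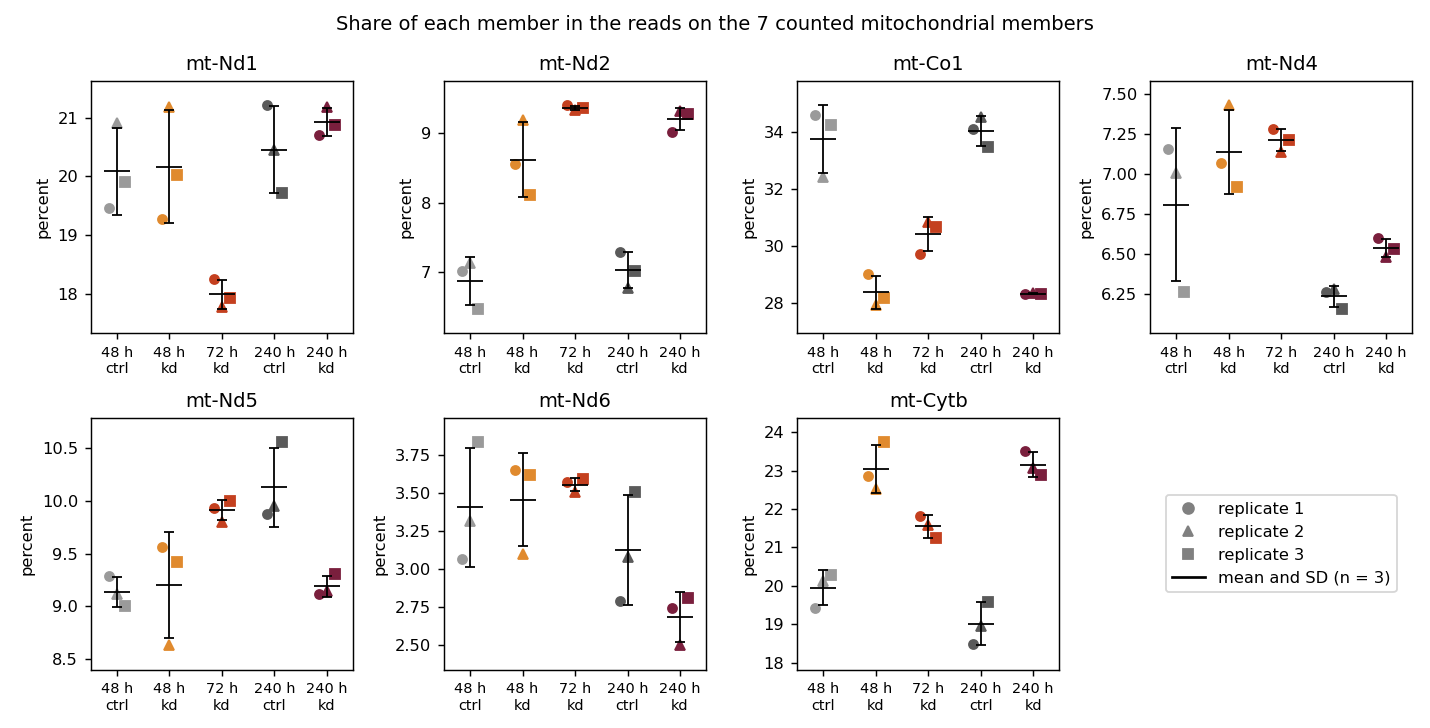
Share of each counted mitochondrial member in the reads on all 7, in percent, by group; the axes do not start at 0. Symbols are libraries and bars the mean and SD (n = 3). For mt-Nd2, mt-Co1 and mt-Cytb the 9 kd libraries lie apart from the 6 ctrl libraries (mt-Co1 27.9% to 30.8% against 32.4% to 34.6%).

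At 48 h the number of nuclear members that passed depended on how the spread was estimated, and so did that of all genes. Of 101 nuclear members, 92 had a mean of at least 0.5 FPKM and were tested; 1 was called (adjusted p-value under 0.05 together with a log2 fold change beyond 0.58 either way), where 3.99% of all genes were called. By adjusted p-value alone, 1 member was higher and 3 were lower, where 8.03% and 8.12% of all genes were. Their median log2 fold change was -0.05, against 0.01 over all genes. It was -0.01 without 48 h kd replicate 2. Leaving out 48 h ctrl replicate 3 gave -0.03, and leaving out replicate 1 of that group gave -0.08. It was -0.09 after rescaling to TPM, where that of all genes was -0.03. The counts became 2 and 5 when 48 h kd replicate 2 was left out. They became 0 and 2 when 48 h kd replicate 3 or any 1 of the 48 h ctrl libraries was left out. With 1 fit of all 15 libraries 5 were higher and 12 lower (13.9% and 14.4% of all genes), with voom on reads 4 and 11 (12.6% and 13.1%), and with a replicate block 0 and 1. In either direction 451 of 11420 genes passed with the replicate block, against 1844 in the main fit. Shares of all genes are not given for fits with 1 library left out. At 240 h 1 of 89 tested members was called, with a background of 8.91%. By adjusted p-value alone 1 was higher, against a background of 17.3%, and 18 (20.2%) were lower, against 16.4% of all genes, with a median of -0.06 against 0.00. The median was -0.02 without 240 h ctrl replicate 3, which also gave 3 higher, as did a replicate block, and -0.10 without 240 h ctrl replicate 1. The number lower fell to 9 without 240 h ctrl replicate 2 or without 240 h kd replicate 3, and to 11 without 240 h kd replicate 1 or 2 or with no minimum, while voom gave 5 higher and 29 lower (23.5% and 22.0% of all genes). In either direction 2968 of 11401 genes passed with a replicate block and 4785 of 32876 with no minimum.

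At 72 h the members moved both ways. Of 90 tested members 4 were called (background 13.5%), and 22 were higher and 24 lower by adjusted p-value alone (background 28.9% and 26.0%), with a median of -0.02 against 0.01 that ran from -0.04 without 48 h ctrl replicate 1 to 0.03 without 48 h ctrl replicate 3. With 240 h ctrl as the control 38 of 89 were higher and 11 lower (42.7% and 12.4%, against 30.2% and 27.0% of all genes), so the balance of the directions rested on the control group, and without 72 h kd replicate 2 the number higher was 14. Against 48 h kd, 5 of 90 members were called (background 7.45%), 15 were higher and 13 lower (background 20.0% and 15.5%), and 13 higher and 6 lower after rescaling to TPM, 12 and 8 with no minimum, 12 and 7 with a replicate block and 28 and 14 by voom (23.8% and 19.2% of all genes). In either direction 4551 of 19091 genes passed with TPM, 3771 of 31624 with no minimum and 2936 of 11500 with a replicate block. In FPKM the counts higher and lower were 10 and 5 with 72 h kd replicate 3 left out, 10 and 8 with replicate 2 of that group left out, and 13 and 6 with its replicate 1 left out. They were 11 and 9 when the library left out was 48 h kd replicate 3. Between 240 h ctrl and 48 h ctrl 0 of 90 members were called (background 0.475%; 34 at an unadjusted p under 0.05; 0 called by voom), 0 higher and 2 lower (background 2.11% and 1.33%), and neither of the 2 passed when any 1 of the 6 libraries was left out. Other fits passed more of them, with 1 higher and 20 lower by voom (6.32% and 5.83% of all genes) and 1 and 17 in 1 fit of all 15 libraries (7.32% and 6.98%). In FPKM 83 of the 90 (92.2%) had a lower mean at 240 h than at 48 h, against 54.6% of all genes, with a median of -0.14 against -0.02. Rescaled to TPM the medians were -0.03 and 0.09, so the scaling moved both by 0.11, and the members stayed below all genes by a like amount.

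**Figure D4:**
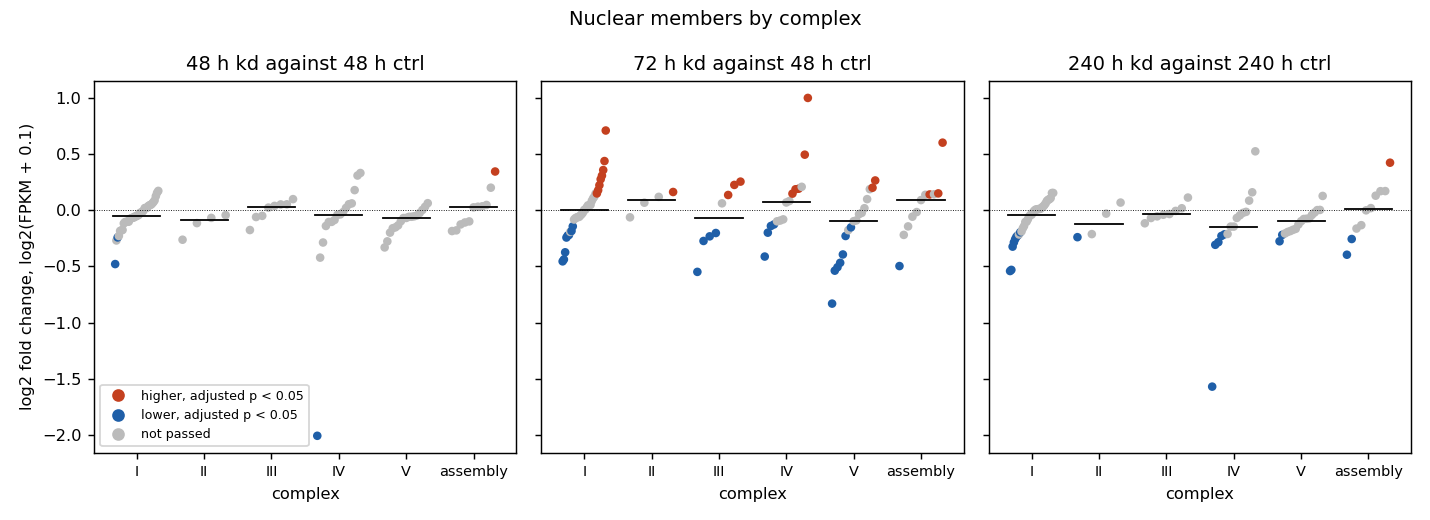
Log2 fold change of the tested nuclear members, by complex and for assembly factors, in the 3 knockdown comparisons. Each point is a gene, black lines are medians, red and blue mark an adjusted p-value under 0.05 (limma). At 72 h 22 of 90 members passed as higher and 24 as lower (28.9% and 26.0% of all genes did). At 240 h 1 of 89 passed as higher and 18 (20.2%) as lower (17.3% and 16.4% of all genes), and 9 as lower without 240 h ctrl replicate 2 or 240 h kd replicate 3.

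Complex I, NADH dehydrogenase, takes electrons from NADH. Of its 39 nuclear members, 0 rose and 2 fell at 48 h, 8 rose and 8 fell at 72 h, and 0 rose and 8 fell at 240 h, by adjusted p-value alone, with 36, 35 and 35 tested. At 72 h this was 22.9% each way, against 28.9% and 26.0% of all genes. With 240 h ctrl as the control 18 rose and 3 fell at 72 h (51.4% and 8.57%, against 30.2% and 27.0% of all genes). At 240 h 22.9% fell, against 16.4%. Ndufv3, an accessory subunit of the NADH-binding arm, passed with the same direction at all 3 times, though not at 48 h with a replicate block. It stood at 4.24, 4.62 and 4.17 FPKM in 48 h ctrl, and at 3.28, 2.97 and 3.01 FPKM in 48 h kd. The 72 h kd libraries had 3.02, 3.17 and 3.24 FPKM, the 240 h ctrl libraries 3.74, 3.86 and 4.07 FPKM and the 240 h kd libraries 2.55, 2.72 and 2.65 FPKM. Every kd library thus lay below every ctrl library; 3 of 90 nuclear members (3.33%) had no overlap of this kind in either direction, against 10.8% of all genes, and the other 2 were Ndufaf7 and Ndufaf4. Ndufv3 fell by 0.48 ± 0.06 (SE) at 48 h, by 0.45 at 72 h and by 0.54 ± 0.05 at 240 h, the 48 h and 72 h values against the same ctrl libraries, with adjusted p-values of 0.00703 at 48 h and 0.000672 at 240 h (limma). These falls were below the size set for a call.

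The core subunits Ndufs1 and Ndufv1 of complex I had small fold changes, while some other subunits changed more. Ndufs1, which carries iron-sulfur clusters, had log2 fold changes of 0.04, -0.06 and 0.05 at 48 h, 72 h and 240 h, none of which passed. Ndufv1, which binds NADH, rose by 0.22 at 72 h only (adjusted p = 0.0026, and 0.0586 in 1 fit of all 15 libraries, limma). Ndufb4, a membrane-arm subunit with a 48 h ctrl mean of 1.71 FPKM, changed by -0.18 at 48 h (adjusted p = 0.092), and fell by 0.44 at 72 h and by 0.53 at 240 h (adjusted p = 0.0011 and 0.0013, limma). Ndufa6 rose by 0.36 at 72 h and fell by 0.26 at 240 h (adjusted p = 0.00098 and 0.011, limma). Ndufa13 was called at 72 h, where it rose by 0.71 (SE 0.09, adjusted p = 0.00155, limma), from 7.07, 8.02 and 9.01 to 12.8, 12.9 and 13.8 FPKM. Its span lies wholly within that of Yjefn3 on the same strand, whose values moved with it (0.71 at 72 h), so the 2 genes cannot be told apart. Against 240 h ctrl the rise of Ndufa13 was 0.41, and with the trend with GC content and span removed it was 0.56, both below the size set for a call.

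Assembly factors build complexes and do not stay in them. Ndufaf7, a methyltransferase that acts in complex I assembly, had 2.34, 2.27 and 2.37 FPKM in 48 h ctrl, 3.2, 2.74 and 3.03 FPKM in 48 h kd and 3.41, 3.76 and 3.59 FPKM in 72 h kd. It rose by 0.35 at 48 h (adjusted p = 0.0198, limma), a difference that did not pass when 48 h kd replicate 3 or any 1 of the 48 h ctrl libraries was left out (adjusted p from 0.0652 to 0.082), with TPM (0.0894) or with a replicate block (0.0643). It was called at 72 h with 0.60 (SE 0.04; 0.57, below the size set for a call, without 72 h kd replicate 2), and both kd groups lay above all ctrl libraries of 48 h. At 240 h, 2.43 to 2.63 FPKM in kd stood against 2.05 to 2.36 FPKM in ctrl. Ndufaf4, another complex I assembly factor, was the 1 nuclear member that rose at 240 h, from 5.1, 4.64 and 5.06 to 6.74, 6.82 and 6.38 FPKM, by 0.42 (SE 0.05, adjusted p = 0.00238, limma). Of the 12 assembly factors, 3 of 11 tested rose (27.3%, against 28.9% of all genes) and 1 fell at 72 h. With 240 h ctrl as the control 5 of 10 rose and 1 fell (50% and 10%, against 30.2% and 27.0% of all genes). At 240 h 1 of 10 rose and 2 fell (10% and 20%, against 17.3% and 16.4%).

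Complex II, succinate dehydrogenase, and complex III, the cytochrome bc1 complex, held no called member at any time. Of the 4 members of complex II, 1 (Sdhc) rose by 0.16 at 72 h and fell by 0.24 at 240 h (adjusted p = 0.0204 and 0.0474, limma). This was 25% at each time, against 28.9% of all genes higher at 72 h and 16.4% lower at 240 h. The rise did not pass when 48 h ctrl replicate 1 or 2 or 72 h kd replicate 1 or 3 was left out, and the fall did not pass when any 1 of the 6 libraries other than 240 h ctrl replicate 1 was left out, nor with TPM. With 240 h ctrl as the control 2 of the 4 rose and 0 fell at 72 h (50% and 0%, against 30.2% and 27.0% of all genes). The flavoprotein Sdha and the iron-sulfur subunit Sdhb passed in none of the 3 comparisons, with log2 fold changes of -0.07, 0.12 and -0.03 for Sdha and -0.26, 0.07 and -0.21 for Sdhb. Of the 8 members of complex III, 3 rose and 4 fell at 72 h (37.5% and 50%, against 28.9% and 26.0% of all genes) and 0 passed at 48 h or 240 h. With 240 h ctrl as the control 3 rose and 1 fell (37.5% and 12.5%, against 30.2% and 27.0%). Uqcrfs1, the Rieske iron-sulfur protein, rose by 0.26 at 72 h (adjusted p = 0.016, and 0.0531 without 72 h kd replicate 1, limma), and the hinge protein Uqcrh fell by 0.55 (SE 0.06, adjusted p = 0.00116, limma), from 12.9, 13.6 and 14.3 to 8.96, 10.0 and 8.81 FPKM. Uqcrh overlaps the predicted gene Gm12854. The core protein Uqcrc1 had -0.18, 0.06 and -0.07, none of which passed.

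Complex IV is cytochrome c oxidase. Its members called in any comparison were Ndufa4l2, Cox6b2, Cox7a2l and Cox7a1. Ndufa4l2, a paralogue of the complex IV subunit Ndufa4 that is known to be induced in hypoxia, had the largest change of the nuclear members tested at 48 h and at 240 h. It had 37, 35 and 32 reads in 48 h ctrl and 6, 10 and 4 reads in 48 h kd. The 240 h ctrl libraries had 27, 26 and 22 reads and the 240 h kd libraries 4, 11 and 8, while the 72 h kd libraries had 21, 38 and 52. The kd libraries lay below all ctrl libraries at 48 h and 240 h, and the 72 h kd libraries overlapped them. It reached the minimum of 0.5 FPKM through the groups in which it was high: its means were 1.32 and 0.914 FPKM in 48 h ctrl and 240 h ctrl, 1.32 FPKM in 72 h kd, and 0.264 and 0.251 FPKM in 48 h kd and 240 h kd. That it was called among the genes above this minimum therefore supports nothing by itself. The log2 fold changes were -2.01 ± 0.23 (SE) at 48 h, -1.57 ± 0.25 at 240 h and 1.93 ± 0.37 for 72 h kd against 48 h kd, and in the fit with no minimum the adjusted p-values were 0.017, 0.0181 and 0.0375 (limma). The gene (chromosome 10, 127514967 to 127517154) shares 32 bases with Shmt2 on the other strand. Ndufa4 itself had a mean of 101 ± 2.8 reads per kilobase of exon and 1000000 library reads (exonic RPKM) in 48 h ctrl against 2.64 ± 0.22 for Ndufa4l2 (SD, n = 3), and fell by 0.20 at 72 h, but had 0.02 against 240 h ctrl.

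Cox6b2, the testis isoform of the subunit Cox6b, was called at 72 h. It had 28.8, 30.8 and 27.0 FPKM in 48 h ctrl, 31.7, 41.5 and 34.7 FPKM in 48 h kd and 57.4, 61.6 and 54.5 FPKM in 72 h kd. In 240 h ctrl it had 27.3, 27.0 and 23.2 FPKM and in 240 h kd 25.4, 22.5 and 22.1 FPKM. All 72 h kd libraries thus stood above all others, and the 240 h groups overlapped. The rise was 1.00 at 72 h (SE 0.07, adjusted p = 0.00018, limma), and 0.69 against 48 h kd (SE 0.11, adjusted p = 0.00705, limma). The somatic isoform Cox6b1 fell by 0.14 at 72 h (adjusted p = 0.0361, limma), which did not pass without 48 h ctrl replicate 2 or any 1 of the 72 h kd libraries, and it had 0.04 against 240 h ctrl. In exonic RPKM, Cox6b1 was at 177 ± 8.9 and Cox6b2 at 33.9 ± 2.3 in 48 h ctrl (SD, n = 3), and 160 ± 2.8 and 68.0 ± 4.2 in 72 h kd.

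The promoters of this pair are shown because Cox6b2 had the highest fold change of the nuclear members tested at 72 h. They run from 250 bases before to 50 bases after the annotated start (RefSeq, GRCm38.p6, both on the minus strand), at chr7:4753045-4753344 for Cox6b2 and chr7:30626065-30626364 for Cox6b1. Capitals mark CGGAAG on either strand, a core bound by ETS family factors.
Cox6b2: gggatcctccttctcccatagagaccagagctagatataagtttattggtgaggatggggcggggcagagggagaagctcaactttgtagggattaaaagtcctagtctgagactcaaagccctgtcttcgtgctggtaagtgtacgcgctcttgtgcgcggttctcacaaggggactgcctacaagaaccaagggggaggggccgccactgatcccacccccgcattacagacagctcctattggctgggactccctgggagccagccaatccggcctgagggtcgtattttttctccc
Cox6b1: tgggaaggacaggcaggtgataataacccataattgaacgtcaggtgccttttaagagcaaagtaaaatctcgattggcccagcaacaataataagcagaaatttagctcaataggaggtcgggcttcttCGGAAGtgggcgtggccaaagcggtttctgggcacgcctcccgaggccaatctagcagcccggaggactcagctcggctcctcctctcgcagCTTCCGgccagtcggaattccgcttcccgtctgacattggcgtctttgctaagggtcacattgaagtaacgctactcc
Of the nuclear members, 79 had a promoter in this set. CGGAAG stood in 36 of them (45.6%), against 18.8% of all 27025 promoters and 39.2% of those of genes tested at 48 h. The NRF1 core GCATGCGC stood in 12 (15.2%, against 3.05% and 6.97%), among them Atp5g2, Atp5l, Cox6a1, Ndufa6, Ndufaf4, Sdhb and Uqcrc1, and the YY1 core AAGATGGCG in 8 (10.1%, against 1.64% and 4.11%). Both strands were searched, and a match is a description of the letters only.

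The other isoform sets of complex IV were led by the isoform known from most tissues. In exonic RPKM in 48 h ctrl, Cox4i1 had 344 and Cox4i2 1.44, Cox6a1 had 202 and Cox6a2 0.0357, and Cox8a had 227, Cox8b 0.249 and Cox8c 0.365. Cox7a2 had 129 ± 11, Cox7a2l 42.4 ± 2.6 and the heart and muscle isoform Cox7a1 5.03 ± 0.81 (SD, n = 3). Cox7a2l, which is known for its role in joining complexes III and IV, had 3.83, 4.05 and 4.32 FPKM in 48 h ctrl, 4.09, 3.42 and 3.84 FPKM in 48 h kd and 5.69, 5.96 and 5.65 FPKM in 72 h kd. It was called against 48 h kd with 0.60 and rose by 0.50 against 48 h ctrl. Without 48 h kd replicate 2 or 72 h kd replicate 2 the former was 0.53 or 0.58, under the size set for a call. Cox7a1 had 22, 25 and 20 reads in 48 h kd and 35, 49 and 37 in 72 h kd, and was called between these groups with 0.63 (adjusted p = 0.025, limma). That call was lost without 48 h kd replicate 1 or 3 or 72 h kd replicate 2. Of the 21 nuclear members of complex IV, 16 were tested at 48 h and 15 at 72 h and at 240 h. Of these 0 rose and 1 fell at 48 h, 5 rose and 4 fell at 72 h (33.3% and 26.7%, against 28.9% and 26.0% of all genes), and 0 rose and 5 fell at 240 h (33.3% lower, against 16.4%). With 240 h ctrl as the control 7 rose and 1 fell at 72 h (46.7% and 6.67%, against 30.2% and 27.0%). Cox5a, which lies at the matrix side, fell by 0.28 at 240 h (adjusted p = 0.0352, limma), which did not pass without 240 h ctrl replicate 2 or 3 or any 1 of the 240 h kd libraries, nor with TPM or no minimum.

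Cox7b2, a paralogue of Cox7b, was under the minimum of 0.5 FPKM over its span, and was picked out after its values had been seen. It had 7, 6 and 2 reads in 48 h ctrl, 9, 16 and 13 in 48 h kd and 16, 32 and 29 in 72 h kd. The 240 h libraries had 7, 7 and 8 reads in ctrl and 20, 21 and 17 in kd. Every kd library had more reads than every ctrl library, but the lowest kd library had 9 and the highest ctrl library 8, not scaled to depth. In FPKM 10.8% of genes averaging 0.5 FPKM or more separated in either direction, a set without Cox7b2. Voom also called it at 72 h and 240 h, but Cox7b2 met its minimum of 10 reads through the kd libraries only, so those calls support nothing and the reads are given as a description. The 8 other members that stayed under the minimum and were not tested at any of the 3 times were Cox8c, Ndufb4c, Ndufa11b, Cox4i2, Sdhaf3, Ndufs6b, Cox6a2 and Cox8b.

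Complex V is the ATP synthase. Of its 17 nuclear members 2 rose and 7 fell at 72 h (11.8% and 41.2%, against 28.9% and 26.0% of all genes), and 3 rose and 5 fell with 240 h ctrl as the control (17.6% and 29.4%, against 30.2% and 27.0%). At 48 h 0 passed, and at 240 h 0 rose and 2 fell (11.8% lower, against 16.4%). Atp5l, subunit g, was called at 72 h. It had 118, 101 and 115 reads in 48 h ctrl, 83, 134 and 101 in 48 h kd and 61, 75 and 52 in 72 h kd. The 240 h libraries had 146, 147 and 107 reads in ctrl and 136, 111 and 127 in kd. The 72 h kd libraries were the 3 lowest of all. The fall was 0.83 ± 0.15 (SE) at 72 h and 0.81 ± 0.20 against 48 h kd (adjusted p = 0.00549 and 0.0288, limma), and the latter did not pass without 48 h kd replicate 2 or 3 or 72 h kd replicate 1 or 3. Atp5l overlaps the predicted gene Gm30934, which had 2 to 12 reads. The genes for the c ring, Atp5g1, Atp5g2 and Atp5g3, encode the same mature protein. At 72 h Atp5g1 fell by 0.51 and Atp5g3 by 0.39, while Atp5g2 rose by 0.27 (0.09, not passing, with the trend with GC content and span removed). In exonic RPKM they had 11.5, 30.9 and 117 in 72 h kd against 16.4, 25.6 and 154 in 48 h ctrl, in the order Atp5g1, Atp5g2 and Atp5g3. In that order 7.29%, 35.8% and 0% of their stretches of 75 bases also occurred in transcripts elsewhere, so the 3 levels may not be equally countable. The catalytic subunits Atp5a1 (-0.07, 0.10 and 0.00) and Atp5b (-0.06, -0.02 and -0.08) passed at none of the 3 times.

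**Figure D5:**
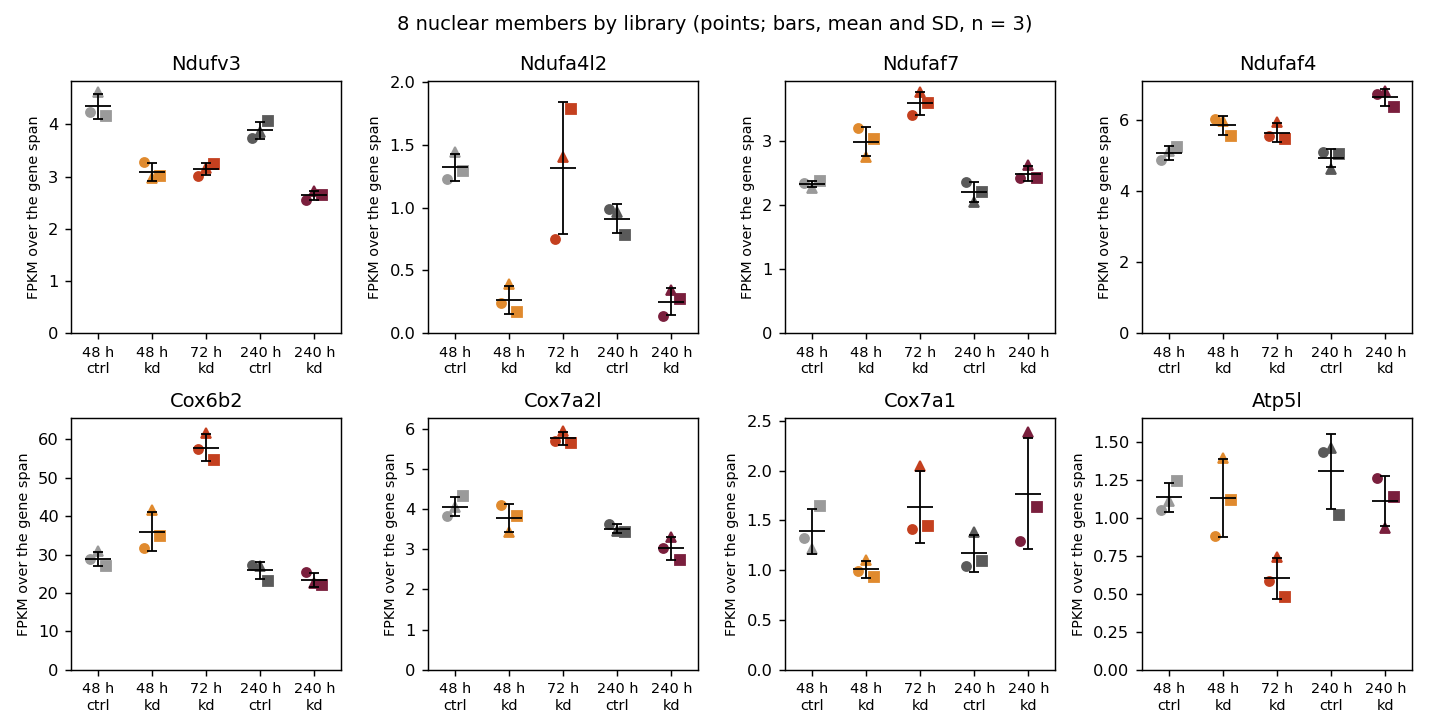
FPKM over the gene span of 8 nuclear members by library, from 0. Symbols are libraries and bars the mean and SD (n = 3). Ndufv3 is lower in all kd groups, Ndufa4l2 in 48 h kd and 240 h kd, Atp5l in 72 h kd; Cox6b2 and Cox7a2l are highest in 72 h kd.

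At 72 h and again at 240 h, from different libraries, 11 nuclear members passed, 23.9% of the 46 at 72 h and 57.9% of the 19 at 240 h, where 51.7% of the 89 nuclear members tested at both times passed at 72 h. Over all genes tested at both times, 68.0% of those that passed at 240 h passed at 72 h, and 55.5% of all did. Of the 11, 7 were lower in both (Sdhaf4, Cox6c, Ndufb4, Ndufv3, Atp5j2, Ndufb11 and Cox7b), Ndufaf4 was higher in both and 3 went in opposite directions (Sdhc, Ndufa6 and Ndufc1). The difference between the 240 h and the 48 h effect was tested over 12 libraries. In that test 1 of 90 nuclear members was called (Cox7a1; background 5.82%), 1 was higher and 4 were lower by adjusted p-value (background 7.76% and 7.82%). The number lower rose to 8 when 48 h kd replicate 2 was left out, and dropped to 2 when 240 h ctrl replicate 2 was and to 1 with TPM, which also left 0 higher. The median log2 fold change of nuclear members was 0.00 there, and from -0.06 to 0.03 with 1 library left out.

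Genes around the respiratory chain were given by list, to be read against the shares of all genes that were higher and lower, 8.03% and 8.12% at 48 h, 28.9% and 26.0% at 72 h and 17.3% and 16.4% at 240 h. Of 78 mitochondrial ribosome genes, which translate the mitochondrial members, 0 rose and 2 fell at 48 h, 9 rose and 30 fell at 72 h, and 6 rose and 4 fell at 240 h, by adjusted p-value, with 75, 75 and 74 tested and medians of -0.03, -0.09 and 0.02. At 72 h this was 12% higher and 40% lower, and at 240 h 8.11% and 5.41%. Their median was also -0.09 in 240 h ctrl against 48 h ctrl (9 of 74 above 0), where that of all genes was -0.02. At 72 h all lists were set against 48 h ctrl only, so the part of the control group in these counts was not tested. Of 14 genes of mitochondrial DNA and transcription, 1 rose at 48 h, 6 rose and 4 fell at 72 h, and 5 rose and 1 fell at 240 h (42.9% and 28.6% at 72 h, 35.7% and 7.14% at 240 h). The 1 at 48 h was Top1mt, the mitochondrial topoisomerase, which rose by 0.43, 0.72 and 0.44 at the 3 times (adjusted p = 0.032, 0.0015 and 0.0087, limma). Of 18 listed genes of mitochondrial RNA processing and stability, 2 rose at 48 h, 4 rose and 6 fell at 72 h, and 7 rose and 0 fell at 240 h (22.2% and 33.3% at 72 h, 38.9% and 0% at 240 h). Of 13 tested genes of the TCA cycle, 0 rose and 1 fell at 48 h, 8 rose and 1 fell at 72 h, and 1 rose and 2 fell at 240 h (61.5% and 7.69% at 72 h, 7.69% and 15.4% at 240 h). Of 15 tested cytochrome oxidase assembly genes, 0 passed at 48 h, 4 rose and 3 fell at 72 h, and 4 rose and 1 fell at 240 h (26.7% and 20% at 72 h, 26.7% and 6.67% at 240 h).

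The short lists held single genes with clear changes, named after their values had been seen. Of the 3 cytochrome c genes, 1 passed as higher at 48 h, 2 at 72 h and 1 at 240 h, and 0 as lower. Cyct, the testis form, rose by 0.50, 0.87 and 0.53 at 48 h, 72 h and 240 h (adjusted p = 0.038, 0.00034 and 0.013, limma), and Cycs, the somatic form, passed at none (0.07, 0.07 and 0.09). Cyc1 had -0.11, 0.24 and 0.04, and passed at 72 h. Of 3 tested adenine nucleotide carriers and ATP synthase inhibitors, 0 passed at 48 h, 2 rose and 1 fell at 72 h, and 1 rose at 240 h. That 1 was Slc25a4, which exchanges ADP and ATP across the inner membrane, with a mean of 85.2 ± 5.5 FPKM in 240 h ctrl and 171 ± 6.4 FPKM in 240 h kd (SD, n = 3). Of 8 tested biogenesis regulators, 1 rose at 48 h, 1 rose and 5 fell at 72 h (12.5% and 62.5%, against 28.9% and 26.0% of all genes), and 1 rose and 1 fell at 240 h (12.5% each, against 17.3% and 16.4%). Myc, one of these, had a mean of 24.1 ± 0.94 FPKM in 48 h kd, 10.2 ± 0.93 FPKM in 72 h kd and 25.5 ± 1.9 FPKM in 240 h kd, against 11.4 ± 0.29 FPKM in 48 h ctrl and 13.2 ± 0.62 FPKM in 240 h ctrl (SD, n = 3).

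Markers of other cell types differed between groups. The summed level of 6 fibroblast markers was 1.37 to 1.58 FPKM in 240 h kd and 0.525 to 0.974 FPKM in all other groups. These markers did not move together: 2 of the 6 were tested at 240 h, and 1 passed as higher in kd and 1 as lower. For 5 primitive endoderm markers the sum was 0.31 to 0.408 FPKM in 240 h kd and 0.0955 to 0.277 FPKM in all other groups. The sum of 5 trophoblast markers was 8.47 to 9.27 FPKM in 48 h ctrl, 5.55 to 6.01 FPKM in 48 h kd, 16.4 to 16.9 FPKM in 72 h kd, 7.04 to 7.78 FPKM in 240 h ctrl and 11.6 to 12.2 FPKM in 240 h kd. Nearly all of it was Tfap2c, the 1 trophoblast marker tested, which was called in the 3 knockdown comparisons with -0.61, 0.92 and 0.64 (adjusted p = 0.0027, 5.8e-05 and 0.00044, limma), while the other 4 had means of at most 0.329 FPKM in every group. The sum of 8 genes of stress after dissociation was 25.0 to 26.0, 25.9 to 29.0, 28.6 to 33.2, 23.2 to 31.2 and 33.5 to 37.4 FPKM in the same order. Single genes moved apart. Of the 5 tested, 1 passed as higher and 1 as lower at 48 h, 3 and 2 at 72 h (from -1.04 to 1.55), and 2 and 0 at 240 h. No marker was at 0 in all libraries, and the part of these shifts in the values of the members was not tested.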

How the data were processed

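Single-end reads of 15 libraries were aligned by the authors to GRCm38 with STAR 2.7.0c (per the labels, which also name DESeq2 1.30.0 and R 4.0.3) and deposited as FPKM, 1 value per gene and library. The labels name no separate cultures, so p-values measure the spread between these libraries, which may be technical. Whole reads were recovered from 100% of values (tolerance 0.001) as value times gene span times a library total; strand was not used and reads in overlapping genes counted for each. Library totals of 11074998 to 14515300 reads set the depth, and replicates differed by more than counting noise (chi-square per degree of freedom 1.3 to 11.3, 15 pairs). Of the listed genes, 53297 matched GENCODE release M21, used for identifiers, strand and exons.

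The test was limma 3.58.1 (R 4.3.3; lmFit, eBayes with trend) on log2(FPKM + 0.1), two-sided, where the mean reached 0.5 FPKM, adjusted by Benjamini-Hochberg over all genes tested. Fold changes on this scale understate those of low genes. Calls needed an adjusted p under 0.05 and a log2 fold change beyond 0.58 either way. An exact permutation test of 3 against 3 cannot go below 0.1 and was not used. Members and lists were chosen with earlier results of these data known. Named genes were all mitochondrial members, called nuclear members, isoform sets, 10 core subunits, the 2 highest and 2 lowest changes per comparison, and Smarcb1; 1 core subunit is not reported here. Scripts were tested on simulated data. Alternatives were pseudocounts of 1 and 0.01, no minimum or 2 FPKM, TPM, median centring, a total without mitochondrial reads, 1 fit of 15 libraries, no trend, a replicate block, leaving out each library, voom on reads (mean 10 or more), and 240 h ctrl at 72 h. Shares of mitochondrial reads and a correction for GC content and span were added after seeing the data. Same-numbered kd and ctrl libraries correlated at -0.0993 to 0.119 in their deviations from group means, so the numbers were not taken as pairs.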

Additional observations from a re-analysis of the deposited data

Results flagged for a closer look

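For 5 of 90 nuclear members, the effects of the knockdown at 240 h and at 48 h differed from each other in a test of that difference (limma, 12 libraries). This was 5.56%, against 15.6% of all 11412 genes tested, so members passed less often than genes at large. The value is the log2 fold change at 240 h minus that at 48 h. It was -0.31 for Ndufa6 (SE 0.06, adjusted p = 0.00672), -0.35 for Ndufb4 (SE 0.08, adjusted p = 0.014), -0.25 for Atp5j (SE 0.06, adjusted p = 0.02) and -0.26 for Ndufb6 (SE 0.07, adjusted p = 0.0335), all 4 of which fell at 240 h and did not pass at 48 h. It was 0.95 for Cox7a1 (SE 0.28, adjusted p = 0.0471), which had log2 fold changes of -0.42 at 48 h and 0.53 at 240 h, neither of which passed. Of these 4, Ndufa6 passed under every alternative. After rescaling to TPM the differences of Ndufb4, Atp5j and Ndufb6 did not pass (adjusted p from 0.0542 to 0.111), nor did that of Ndufb4 with voom (0.0607). The Atp5j difference did not pass without 240 h ctrl replicate 2 (0.0534). The Ndufb6 difference passed without any 1 of 5 libraries (48 h ctrl replicate 3, 48 h kd replicates 2 and 3, 240 h ctrl replicate 1 and 240 h kd replicate 2) and was lost without any 1 of the other 7, with no minimum and with median centring. Cox7a1 had 20 to 67 reads per library, and its difference did not pass without any 1 of 10 of the 12 libraries; it held without 240 h ctrl replicate 2 or 240 h kd replicate 1. It also did not pass with TPM (adjusted p = 0.0543), no minimum (0.0981) or a pseudocount of 1 (0.0565).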

How the results depend on the processing

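No member changed its direction under any alternative tried for the called changes. The count of called nuclear members stayed within 1.5 times at 48 h (1) and 240 h (1), except that a minimum of 2 FPKM, which leaves Ndufa4l2 out, gave 0 at both and voom gave 2 at 240 h. At 72 h it moved from 4 to 2 with a pseudocount of 1, and against 48 h kd from 5 to 2 with that pseudocount, 3 with no minimum, 2 with a minimum of 2 FPKM and 3 with GC content and span removed. For the difference between times it moved from 1 to 0 with a pseudocount of 1, no minimum, a minimum of 2 FPKM and TPM. Leaving out 1 library gave 4 to 5 at 72 h, 3 to 5 against 48 h kd and 0 to 1 for the difference between times. Called mitochondrial members moved from 0 to 4 at 240 h and from 0 to 3 at 72 h kd against 48 h kd with voom. Passing shares ranged, with 1 library left out, from 0 to 3 at 48 h, 0 to 5 at 72 h kd against 48 h kd and 0 to 1 for the difference between times. The replicate block left the counts of called members as they were (nuclear 1, 4, 1, 0, 5 and 1 over the 6 comparisons); under it Ndufv3 at 48 h had an adjusted p of 0.0558. The causes were not tested. The minimum of 0.5 FPKM, not the depth alone, kept low genes such as Cox7b2 out.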
